A study of Mus musculus with 8 samples.

Results

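The 10 genes described here mark the cells of the brain's capillaries. Of these, 7 mark endothelial cells (Cldn5, Pecam1, Slc2a1, Slco1a4, Flt1, Kdr and Tek) and 3 mark pericytes (Pdgfrb, Vtn and Rgs5). The rule takes them by symbol as known markers and uses no measured value, though earlier results of these data were known when they were picked, and all 10 are among the 19201 genes of the deposited table. Hippocampal RNA was sequenced from wild-type C57BL/6 mice and from Mbd2-/- mice, which lack the methyl-CpG binding protein Mbd2, in 4 libraries per genotype. Mice were 10 to 12 weeks old littermates from heterozygous parents, and each library pooled the hippocampi of 2 mice, which makes the pool, not the animal, the replicate. Total RNA was depleted of ribosomal RNA and read as 100 base paired ends. The Mbd2-/- line still transcribes the first exon of Mbd2. By the study's methods both sexes were used in numbers matched between the groups, the makeup of each pool is not given in the sources used here, and p-values measure the spread between these pools.

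Brain capillaries are lined by endothelial cells that are sealed to each other by tight junctions, carry few vesicles and move nutrients and waste through dedicated transporters, which together form the blood-brain barrier. Pericytes sit on the outer face of the endothelium within the same basement membrane and are recruited by PDGF signalling. Vascular endothelial growth factor (VEGF) acts on the endothelium through Kdr, while Flt1 binds the same ligand tightly and limits it. In whole hippocampal RNA these cells are a minor source, so a gene's level depends both on how many such cells were in the tissue and on how much RNA each held, and fewer cells and less RNA per cell cannot be told apart.

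The unit throughout is the normalized count, the reads on a gene divided by a size factor for the library. Reads on genes recovered from these values ran from 8087750 to 23790825 per library, and the 10 genes gathered between 1419 reads (Tek) and 10858 reads (Slc2a1) over the 8 libraries. Genotypes were compared with limma on log2(normalized count + 1) over the 14504 genes with a mean of at least 10, and a gene is called when its Benjamini-Hochberg adjusted p over all these genes is under 0.05. Of the tested genes, 12.0% were called higher and 10.0% lower in Mbd2-/-. Mbd2 itself fell from 346 ± 34.4 (SD, n = 4) to 260 ± 54.3, a log2 fold change of -0.43 (limma, adjusted p = 0.0174), but the library labelled Mbd2-/- replicate 3 had 339 and that labelled wild-type replicate 1 had 295, so this value, which includes the first exon, did not separate the libraries by label. Without wild-type replicate 3, Mbd2-/- replicate 1 or Mbd2-/- replicate 2 its adjusted p was 0.0625, 0.0542 or 0.0579. The Mbd2-/- libraries also differed from wild type along transcript length. Across genes, which are not independent, the Spearman correlation between length and a library's deviation from the wild-type mean was -0.49, -0.43, -0.48 and -0.10 in Mbd2-/- libraries 1 to 4, against -0.06 to 0.06 in wild type, so that replicate 4 stood apart from its group. Fold changes, calls and the counts of each list were therefore also computed without that library and with the length trend of every library removed, while the ratios between genes, levels per kilobase and correlations given further on were not. Without that library 17.9% of the tested genes were called higher and 17.6% lower. With the length trend removed the shares were 8.03% and 6.71% of the 14014 tested genes that have a transcript length, here and further on.

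Of the 10 genes, 3 were called higher in Mbd2-/- (Rgs5, Cldn5 and Slco1a4), none was called lower, and 7 were not called. Over all tested genes 12.0% were called higher and 10.0% lower. At an unadjusted p under 0.05 neither Flt1 nor Tek, the genes with a negative fold change, was lower, and DESeq2, edgeR and limma-voom on the recovered reads called none lower either. The median log2 fold change of the 10 was 0.17, against 0.00 over all tested genes, and 8 of the 10 fold changes were positive. In 4 genes (Rgs5, Cldn5, Slco1a4 and Kdr) every Mbd2-/- library lay above every wild-type library, which held for 12.1% of all tested genes, and in none did every Mbd2-/- library lie below, which held for 11.5%.

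Because Mbd2 binds methylated CpG sites, the promoter windows of the 3 called genes and of the receptor pair Kdr and Flt1 are shown with each CpG in capitals. Each window runs from 250 bases before to 50 bases after the start of the gene, 5′ to 3′ on the gene's own strand, from RefSeq on GRCm38.p6, and 8 of the 10 genes matched a window. The windows lie at chr16:18776597-18776896 on the plus strand (Cldn5), chr1:169655251-169655550 on the plus strand (Rgs5), chr6:141856171-141856470 on the minus strand (Slco1a4), chr5:75978406-75978705 on the minus strand (Kdr) and chr5:147725962-147726261 on the minus strand (Flt1).
Cldn5: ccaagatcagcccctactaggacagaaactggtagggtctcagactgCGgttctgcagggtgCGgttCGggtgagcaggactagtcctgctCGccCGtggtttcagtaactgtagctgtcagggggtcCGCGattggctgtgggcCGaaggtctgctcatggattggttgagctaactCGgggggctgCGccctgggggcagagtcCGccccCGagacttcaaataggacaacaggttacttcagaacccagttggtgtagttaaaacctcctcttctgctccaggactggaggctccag
Rgs5: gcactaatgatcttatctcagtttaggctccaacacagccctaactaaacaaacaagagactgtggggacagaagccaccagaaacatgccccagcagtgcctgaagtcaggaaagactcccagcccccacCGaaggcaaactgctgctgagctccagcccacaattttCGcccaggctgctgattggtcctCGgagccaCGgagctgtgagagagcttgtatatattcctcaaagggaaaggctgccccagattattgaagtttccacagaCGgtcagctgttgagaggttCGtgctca
Slco1a4: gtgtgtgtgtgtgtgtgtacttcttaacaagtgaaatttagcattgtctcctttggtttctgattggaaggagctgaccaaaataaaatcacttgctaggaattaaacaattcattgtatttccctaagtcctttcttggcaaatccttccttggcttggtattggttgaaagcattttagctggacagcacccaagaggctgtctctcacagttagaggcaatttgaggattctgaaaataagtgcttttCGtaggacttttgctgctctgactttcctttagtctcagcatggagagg
Kdr: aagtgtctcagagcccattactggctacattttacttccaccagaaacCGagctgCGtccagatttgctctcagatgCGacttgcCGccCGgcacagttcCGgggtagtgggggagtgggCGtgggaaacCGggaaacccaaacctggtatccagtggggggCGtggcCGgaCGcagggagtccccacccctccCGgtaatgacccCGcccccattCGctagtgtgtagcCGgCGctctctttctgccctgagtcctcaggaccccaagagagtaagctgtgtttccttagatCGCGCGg
Flt1: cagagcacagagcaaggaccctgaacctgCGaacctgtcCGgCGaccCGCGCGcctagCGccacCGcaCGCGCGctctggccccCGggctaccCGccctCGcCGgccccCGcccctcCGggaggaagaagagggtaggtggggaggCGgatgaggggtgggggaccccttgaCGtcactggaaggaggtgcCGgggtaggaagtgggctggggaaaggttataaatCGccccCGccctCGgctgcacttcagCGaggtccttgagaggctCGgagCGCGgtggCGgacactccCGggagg

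The called genes did not share a promoter type by this measure. The Slco1a4 window held 1 CpG and was 40.7% C and G. The Rgs5 window held 6 CpG and the Cldn5 window 12, against a median of 7 over all 32851 windows of the table. Among the receptors, the Flt1 window held 29 CpG, the Kdr window 19 and the Tek window 3, while the Slc2a1 window held 18 and the Vtn window 9. The ETS core AGGAAG, a motif of a factor family active in endothelium, was searched on both strands and stood in 2 of these 8 windows (Flt1 and Slco1a4) and in 35.4% of all windows. The GC box GGGCGG stood in 4 windows (Cldn5, Flt1, Kdr and Slc2a1) and in 35.7% of all windows, and the TATA motif TATAAA in 3 windows (Flt1, Slc2a1 and Vtn) and in 13.6% of all windows. These are matches of letters in a window, and methylation was not analysed here.

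Cldn5 encodes claudin-5, the main claudin of the brain's endothelial tight junctions. Its levels were 459, 413, 413 and 432 normalized counts in wild-type libraries 1 to 4, and 536, 598, 633 and 485 in Mbd2-/- libraries 1 to 4. The groups did not overlap, and Mbd2-/- replicate 4 was the lowest of its group. From a mean of 429 ± 21.6 (SD, n = 4) to 563 ± 65.4, Cldn5 rose by 31.2%, with a log2 fold change of 0.38 (SE 0.08, 95% interval 0.22 to 0.55, limma, adjusted p = 0.00334). The call held without each library in turn and under 9 of the 10 settings with all libraries. With the length trend removed the log2 fold change was 0.20 and the adjusted p was 0.0504. Cldn5 has the shortest transcript of the 10 genes, 1414 bases on mm9, at chr16:18776940-18778353.

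Pecam1, the adhesion molecule CD31 of endothelial cell borders, was measured at 216, 194, 179.6 and 192 in wild type and at 208, 221, 225 and 224 in Mbd2-/-. The highest wild-type library lay above the lowest Mbd2-/- library, and the other 3 Mbd2-/- libraries lay above all wild-type values. The means were 195 ± 15.1 and 220 ± 7.73 (SD, n = 4 each). The log2 fold change of 0.17 (SE 0.08) did not pass the test (limma, adjusted p = 0.148), with an interval that ran from -0.0031 to 0.34. Pecam1 lies at chr11:106515531-106611942 (mm9).

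Of the transporters, Slco1a4, an organic anion transporter of the barrier (Oatp1a4), rose. It was measured at 400.2, 406, 380.1 and 386 in wild type, and at 430.3, 445, 457 and 523 in Mbd2-/-. All Mbd2-/- libraries were above all wild-type libraries, and replicate 4 was the highest of them. The mean went from 393 ± 11.8 (SD, n = 4) to 464 ± 40.7, a gain of 18.1% (log2 fold change 0.24, SE 0.07, 95% interval 0.085 to 0.39, limma, adjusted p = 0.0267). The call did not hold without wild-type replicate 1, 3 or 4, where the adjusted p was 0.0554, 0.0807 or 0.0757, and it held in the other 5 cases and in all settings with all libraries. Slco1a4 lies at chr6:141753961-141804720 (mm9) among close relatives, and reads that fit several of them could be counted for either. Its relative Slco1a5 was measured at only 6.71 ± 2.96 in wild type and 13.7 ± 3.36 in Mbd2-/-.

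Slc2a1, the glucose transporter Glut1 that feeds the brain from the blood, showed no detectable difference. Its levels were 1310.0, 1217, 1266 and 1292 in wild type and 1279, 1287, 1449 and 1179 in Mbd2-/-. The Mbd2-/- libraries held both the highest and the lowest value of the 8. The means of 1271 ± 40.6 and 1299 ± 112 (SD, n = 4 each) gave a log2 fold change of 0.027 (SE 0.06, limma, adjusted p = 0.79), with a 95% interval from -0.10 to 0.16. The sign turned without Mbd2-/- replicate 3 (-0.027) and with the length trend removed (-0.012). Slc2a1 (chr4:118781316-118809935, mm9) overlaps 2 noncoding genes on the opposite strand, Gm12867 and Gm12868, and reads from these cannot be told apart from its own without strand information.

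**Figure D1:**
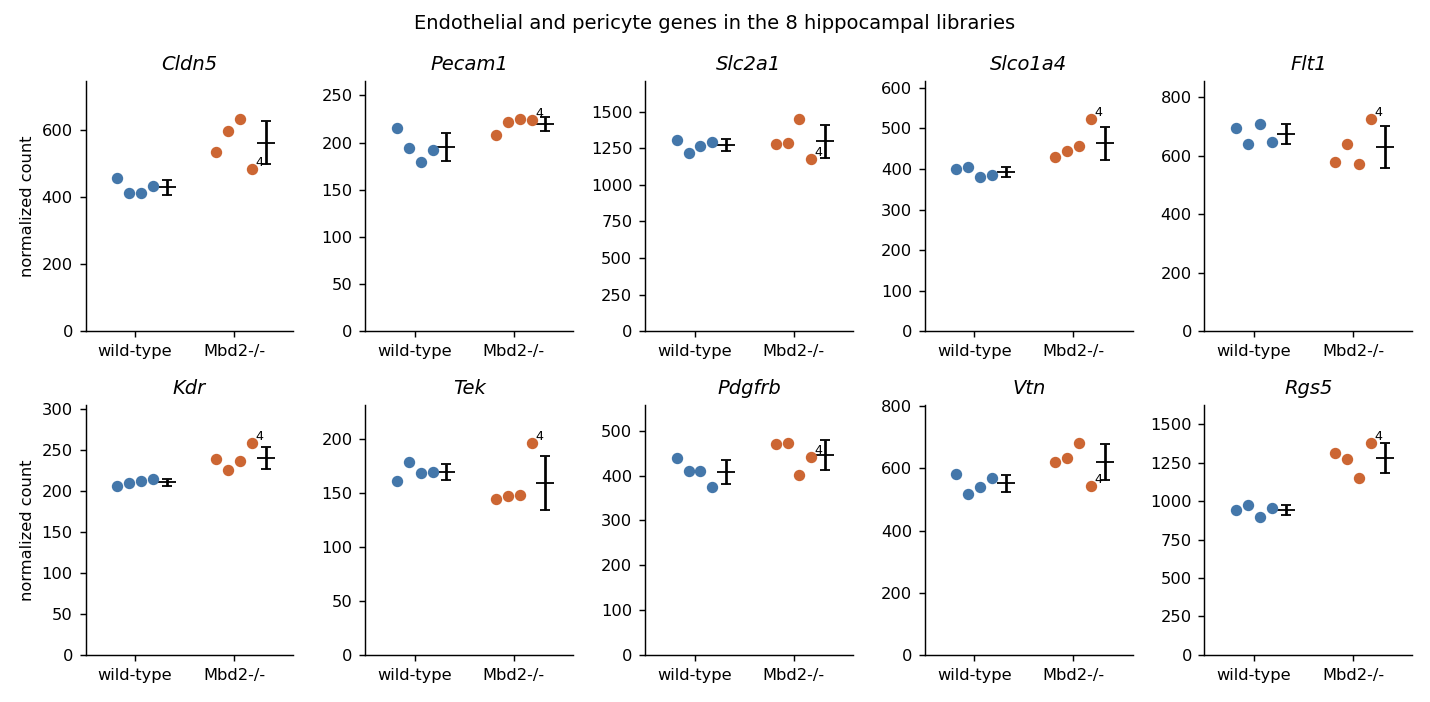
Normalized count (vertical axis, from 0) of each of the 10 genes in the 4 wild-type and 4 Mbd2-/- libraries, replicates 1 to 4 from left to right, with the mean and SD as a black dash and bar and the digit 4 marking Mbd2-/- replicate 4. The genotypes do not overlap for Rgs5, Cldn5, Slco1a4 and Kdr, and Tek in Mbd2-/- replicate 4 stands at 196 above the other 3 at 144 to 148.

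None of the endothelial receptor tyrosine kinases was called. Kdr, the main signalling receptor for VEGF, was measured at 205, 209, 212 and 215 in wild type and at 239, 226, 236 and 258 in Mbd2-/-. Every Mbd2-/- value lay above every wild-type value. The mean of 210 ± 4.02 in wild type and 240 ± 13.7 in Mbd2-/- (SD, n = 4 each) stood at a ratio of 1.14, yet the log2 fold change of 0.19 (SE 0.08, 95% interval 0.026 to 0.35) missed the threshold (limma, adjusted p = 0.0885). With the length trend removed it was 0.28 and called (limma, adjusted p = 0.0119). Kdr lies at chr5:76328852-76374483 (mm9) and has a transcript of 5924 bases.

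Flt1, the VEGF receptor that limits signalling through Kdr, lies on the same chromosome at chr5:148373180-148537587 (mm9) and has the longest transcript of the 10, 6895 bases. Its levels were 695, 642, 710.1 and 647 in wild type and 579.7, 642, 574 and 726 in Mbd2-/-. Mbd2-/- replicate 4 was the highest of all 8 libraries, and Mbd2-/- replicates 1 and 3 were the lowest. The means were 674 ± 34.3 and 630.3 ± 70.6 (SD, n = 4 each), and the log2 fold change of -0.10 (SE 0.08, 95% interval -0.26 to 0.059) did not pass the test (limma, adjusted p = 0.357). Without Mbd2-/- replicate 4 Flt1 was called lower, at -0.17 (limma, adjusted p = 0.0323). After removal of the length trend the sign turned, to 0.014 (limma, adjusted p = 0.906).

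Tek encodes Tie2, the receptor for the angiopoietins that steadies resting vessels. It was measured at 160.4, 178, 169 and 169 in wild type and at 144, 147, 148 and 196 in Mbd2-/-. In Mbd2-/- 3 libraries lay below all wild-type values and replicate 4 above all of them. The means were 169 ± 7.33 and 159 ± 24.8 (SD, n = 4 each), and the log2 fold change was -0.10 (SE 0.10, 95% interval -0.32 to 0.12, limma, adjusted p = 0.52). Without replicate 4 it was -0.20 and did not pass the test (limma, adjusted p = 0.0897). Tek lies at chr4:94405980-94541667 (mm9).

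The pericyte genes were led by Rgs5, a regulator of G protein signalling that is strongly expressed in brain pericytes. Rgs5 was measured at 946, 972, 896 and 952 in wild type and at 1314, 1275, 1148 and 1379 in Mbd2-/-. The lowest Mbd2-/- library lay well above the highest wild-type library. The mean went from 942 ± 32.3 (SD, n = 4) to 1279 ± 97.5, a rise of 35.8% (log2 fold change 0.44, SE 0.06, 95% interval 0.31 to 0.57, limma, adjusted p = 0.000239). It ranked 125 by p among the 14504 tested genes. The call held in all 10 settings with all libraries and without each library in turn, where the log2 fold change ran from 0.40 to 0.49. Rgs5 lies at chr1:171585632-171625944 (mm9).

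Vtn, vitronectin, a matrix glycoprotein that pericytes make in the brain, was measured at 582, 519, 539.7 and 568 in wild type and at 622, 634, 682 and 545 in Mbd2-/-. Mbd2-/- replicates 1 to 3 lay above all wild-type values and replicate 4 lay within them. The means were 552 ± 28.1 and 621 ± 56.9 (SD, n = 4 each), with a log2 fold change of 0.17 (SE 0.07, 95% interval 0.012 to 0.32) that did not pass the test (limma, adjusted p = 0.112). Without replicate 4 it was 0.23 and called (limma, adjusted p = 0.00564), and with the length trend removed it was 0.034 (limma, adjusted p = 0.767). Vtn lies at chr11:78312593-78315826 (mm9).

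**Figure D2:**
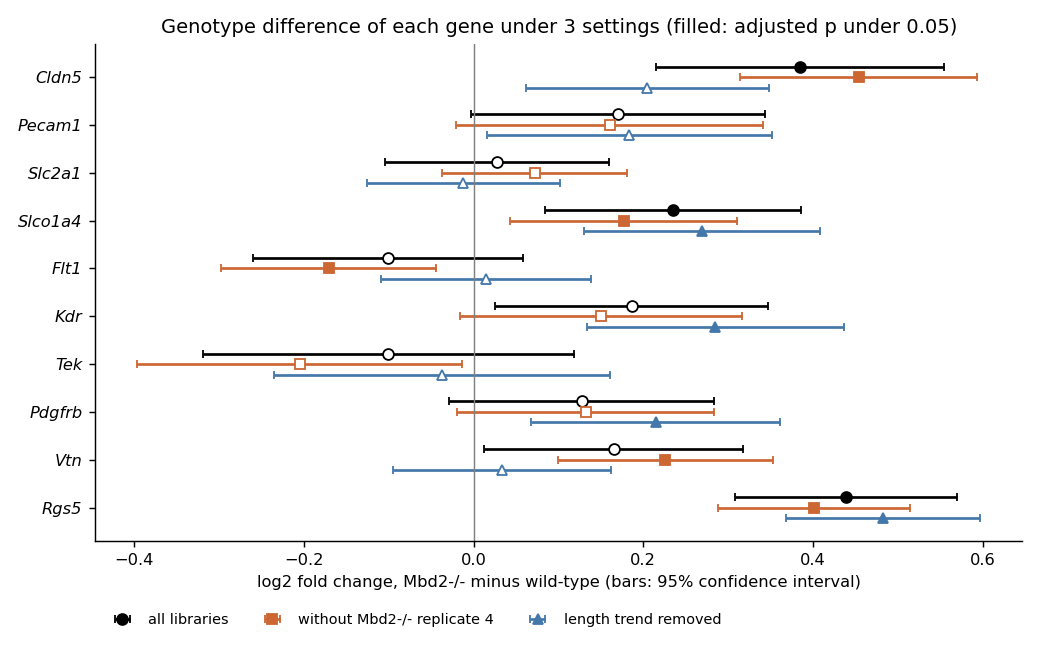
Log2 fold change, Mbd2-/- minus wild-type (horizontal axis), of each gene with its 95% confidence interval, with all libraries (black), without Mbd2-/- replicate 4 (orange) and with the length trend removed (blue), where a filled marker has an adjusted p under 0.05. Rgs5 and Slco1a4 are filled in all 3 settings, while Cldn5, Flt1, Kdr, Pdgfrb and Vtn are filled in some settings and open in others.

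Pdgfrb, the receptor through which pericytes answer endothelial PDGF-B, was measured at 439, 409, 411 and 374 in wild type and at 469.9, 473, 402 and 441 in Mbd2-/-. The groups overlapped, with Mbd2-/- replicate 3 below 3 of the wild-type libraries. The means were 408 ± 26.7 and 446 ± 33.1 (SD, n = 4 each), and the log2 fold change of 0.13 (SE 0.07, 95% interval -0.029 to 0.28) did not pass the test (limma, adjusted p = 0.231). After removal of the length trend it was 0.21 and called (limma, adjusted p = 0.0461). Pdgfrb lies on the same chromosome as Mbd2, 18, at a distance of 9.5 Mb.

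Beside these tests, the exact two-sided permutation test of each gene's normalized counts over the 8 libraries gave p = 0.0286, the smallest that 4 against 4 allows, for Rgs5, Cldn5, Slco1a4 and Kdr. It gave 0.0571 for Pecam1 and 0.0857 for Vtn, and between 0.171 and 0.771 for Pdgfrb, Flt1, Tek and Slc2a1 (exact permutation test, n = 4 per group).

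Ratios between 2 of the genes within a library do not depend on its scaling, and they set genes of the same cell type against each other. In all, 8 pairs were compared, chosen after the values were seen, with an exact two-sided permutation test of the log2 ratio and Benjamini-Hochberg adjustment over the 8. The adjustment does not cover that choice, so these p-values are descriptions. The Kdr to Flt1 ratio of normalized counts was 0.295, 0.326, 0.299 and 0.332 in wild type and 0.412, 0.352, 0.411 and 0.356 in Mbd2-/-. Every Mbd2-/- library had the higher ratio, by a mean of 0.29 on the log2 scale (exact p = 0.0286, adjusted p = 0.0762). The Rgs5 to Pdgfrb ratio went from 2.15, 2.37, 2.18 and 2.55 to 2.80, 2.70, 2.86 and 3.13, again without overlap, by 0.31 (exact p = 0.0286, adjusted p = 0.0762). Kdr to Tek was higher in Mbd2-/- by 0.29, also without overlap (exact p = 0.0286, adjusted p = 0.0762). None of the 8 reached an adjusted p under 0.05, and with 3 pairs at the smallest p the design allows, the adjusted p could not go lower.

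The remaining pairs overlapped between the genotypes. The mean log2 ratio differed by 0.27 for Rgs5 to Vtn (exact test, adjusted p = 0.0914), by 0.21 for Slco1a4 to Slc2a1 (exact test, adjusted p = 0.0914) and by 0.21 for Cldn5 to Pecam1 (exact test, adjusted p = 0.114). The difference was 0.04 for Vtn to Pdgfrb and 0.00 for Flt1 to Tek. Since Kdr, Flt1 and Tek recur in several pairs, the pairs are not independent of each other.

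**Figure D3:**
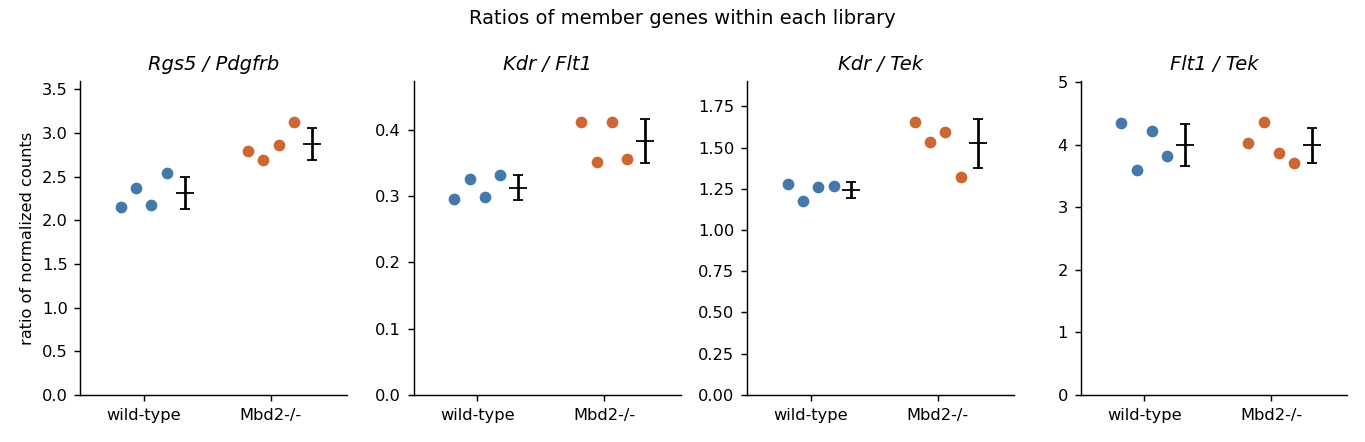
Ratio of the normalized counts of 2 genes within each library (vertical axes, from 0) for 4 of the 8 pairs, replicates 1 to 4 from left to right in wild-type and Mbd2-/- libraries, with the mean and SD as a black dash and bar. The Rgs5 to Pdgfrb, Kdr to Flt1 and Kdr to Tek ratios are higher in all 4 Mbd2-/- libraries than in any wild-type library, and the Flt1 to Tek ratio overlaps.

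Compared per kilobase of longest transcript, Slc2a1 was the most abundant of the 10 in wild type, at 488 ± 15.6 normalized counts per kilobase (SD, n = 4). It was followed by Vtn at 317 ± 16.1, Cldn5 at 304 ± 15.3 and Rgs5 at 229.9 ± 7.89. Vtn and Cldn5 overlapped between libraries, and Rgs5 lay below both. The other 6 genes were lower, from Slco1a4 at 103 ± 3.10 and Flt1 at 97.7 ± 4.98, which overlapped, through Pdgfrb at 75.3 ± 4.93 and Pecam1 at 56.8 ± 4.38, to Tek at 36.4 ± 1.58 and Kdr at 35.5 ± 0.679, which overlapped. In Mbd2-/- Slc2a1 was again first, at 498 ± 42.8, and Cldn5 (398 ± 46.3), Vtn (356 ± 32.6) and Rgs5 (312 ± 23.8) formed a run in which each overlapped the next. Kdr (40.5 ± 2.31) stood before Tek (34.2 ± 5.32) there, with overlap.

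**Figure D4:**
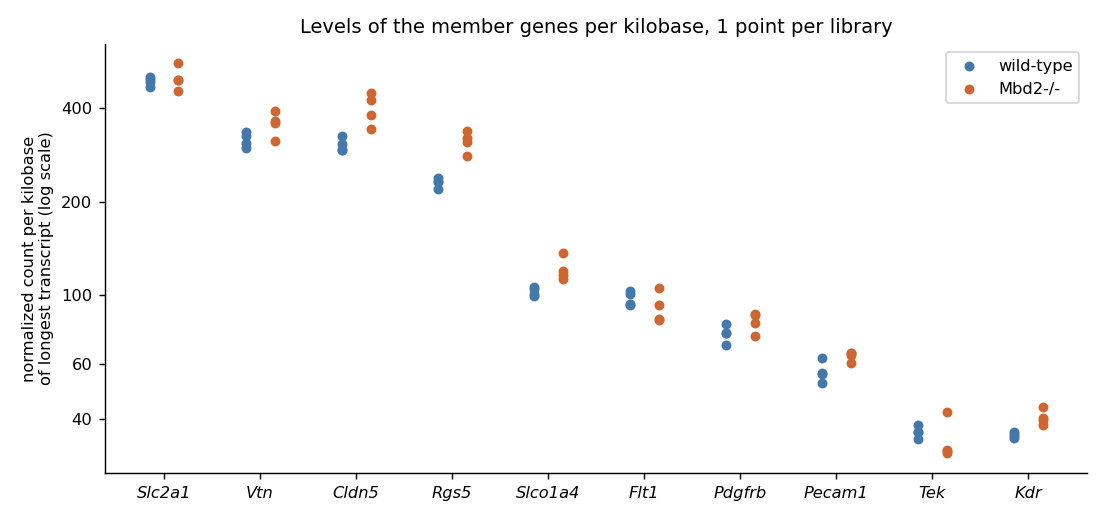
Normalized count per kilobase of longest transcript (vertical axis, log scale) of the 10 genes in each library, ordered by the wild-type mean. Slc2a1 has the highest mean in both genotypes, and Rgs5 overlaps Vtn in Mbd2-/- but not in wild type.

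Within a genotype the endothelial genes varied in more than 1 pattern. Over the 8 libraries, after each genotype's mean was taken off, the 21 pairs of endothelial genes had a median Pearson's r of 0.16, from -0.79 (Cldn5 and Kdr) to 0.90, and 12 of the 21 were positive. Cldn5 followed Slc2a1 (r = 0.90) and the pericyte gene Vtn (r = 0.94), and Tek followed Slco1a4 (r = 0.90) and Kdr (r = 0.84), while Tek and Vtn ran against each other (r = -0.86). These values are descriptions over 8 libraries that share depth, scaling and the length trend, in which Mbd2-/- replicate 4 weighs heavily. The genes nearest to the mean of the endothelial genes were Tmem74, Ino80 and Prkar1a (each r = 0.98) among genes in no list, and Atp13a5 (r = 0.89), Amotl1 (r = 0.82) and Slc7a1 (r = 0.76) among the listed ones.

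Further genes of the same cells were taken from lists of known markers. Of 28 other endothelial identity genes, 2 were called higher and none lower, with a median log2 fold change of 0.09 (0.026 with the length trend removed). Without Mbd2-/- replicate 4, 4 of the 28 were called higher and 1 lower, where 17.9% and 17.6% of all genes were called. Itm2a, a membrane protein enriched in brain endothelium, rose from 359.8 ± 17.6 to 505 ± 28.1 (SD, n = 4 each), a log2 fold change of 0.49 (limma, adjusted p = 0.000216). S1pr1, the sphingosine 1-phosphate receptor of endothelium and astrocytes, rose by 0.26 on the log2 scale (limma, adjusted p = 0.00703). Ly6c1, an abundant endothelial surface protein, was at 224 ± 6.19 and 239 ± 37.7 and did not pass the test (limma, adjusted p = 0.571). The other 26 identity genes did not pass the test in either direction, and 12.0% of all genes were called higher. Of the 28 fold changes 17 were positive. Cdh5 was lower in every Mbd2-/- library than in any wild-type library, at -0.15 (limma, adjusted p = 0.261). Ptprb was at -0.14, and was the 1 gene called lower without Mbd2-/- replicate 4 (-0.22, limma, adjusted p = 0.00371).

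Of 13 other junction genes 1 was called higher, where 12.0% of all genes were. It was Cgnl1, which encodes a cingulin-like protein of tight and adherens junctions. Cgnl1 rose from 378 ± 33.3 to 551 ± 41.0 (SD, n = 4 each), a log2 fold change of 0.55 (limma, adjusted p = 0.000253). The most abundant junction genes had log2 fold changes near 0, with Ctnnb1 (beta-catenin) at 0.01, Tjp1 (ZO-1) at -0.10 and Jam2 at 0.11, none of them called. The median of the list was 0.11, and 3 genes were called higher and 1 lower without Mbd2-/- replicate 4, where 17.9% and 17.6% of all genes were called. The 1 called lower there was Tjp1, at -0.15 (limma, adjusted p = 0.0143). After removal of the length trend 2 were called higher, where 8.03% of all genes were, and the median was 0.055.

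Of 16 other barrier transporter genes, 4 were called higher and 2 lower, with a median of 0.056, where 12.0% and 10.0% of all genes were called. After removal of the length trend 5 were called higher and 1 lower, where 8.03% and 6.71% of all genes were called, and the median was 0.018. Slco1c1, a thyroxine transporter of the barrier, rose by 0.47 on the log2 scale (limma, adjusted p = 7.2e-05), and Bsg, basigin, a partner of lactate transporters, by 0.39 (limma, adjusted p = 0.000555). Tfrc, the transferrin receptor, rose by 0.28, and Slc38a3, a glutamine transporter, by 0.27. The amino acid transporter Slc7a5 was lower, with a log2 fold change of -0.22 (limma, adjusted p = 0.0143), as was the taurine transporter Slc6a6, at -0.19 (limma, adjusted p = 0.0126), whose call was lost with the length trend removed (-0.087, limma, adjusted p = 0.205). Slc3a2, the partner chain of Slc7a5, was at 0.12 and did not pass the test. Without Mbd2-/- replicate 4 Slc3a2 was at 0.19 and called (limma, adjusted p = 0.00379). In that setting 5 of the list were called higher and 2 lower, where 17.9% and 17.6% of all genes were called. Bsg, Tfrc, Slc38a3, Slc6a6 and Slc7a5 are also made by neurons or glia. Which cells carried the rise of Slco1c1 was not tested either.

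Of the VEGF and angiopoietin genes beside the receptors, 11 of 12 were tested, and 1 was called higher and 2 lower, where 12.0% and 10.0% of all genes were called. The median of the list was -0.04. The co-receptors Nrp1 and Nrp2, which neurons also express, both fell, by 0.22 (limma, adjusted p = 0.0184) and 0.20 (limma, adjusted p = 0.0186) on the log2 scale, without overlap between genotypes. Vegfb rose by 0.23 (limma, adjusted p = 0.039), although Mbd2-/- replicate 4 lay among the wild-type libraries. Vegfa was at 539 ± 37.7 and 608 ± 53.3 (SD, n = 4 each) and did not pass the test (limma, adjusted p = 0.104). No gene of this list was called with the length trend removed. Of 5 PDGF genes, Pdgfc rose by 0.33 (limma, adjusted p = 0.0268), and the ligand of Pdgfrb on endothelium, Pdgfb, had a log2 fold change of -0.11 that was not called.

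Of 15 other pericyte markers, 13 were tested, and 2 were called higher and 2 lower (median 0.14), each near the 12.0% and 10.0% called over all genes. Without Mbd2-/- replicate 4, 1 was called higher (Kcnj8) and 1 lower (Cspg4), where 17.9% and 17.6% of all genes were called. Kcnj8, a potassium channel subunit of brain pericytes, was measured at 24.0, 38.4, 41.9 and 35.6 in wild type and at 52.4, 51.2, 63.8 and 51.9 in Mbd2-/-, with a log2 fold change of 0.66 (limma, adjusted p = 0.0154). Atp13a5, a transport ATPase specific to brain pericytes, rose by 0.32 (limma, adjusted p = 0.0399). Cspg4 (NG2), which oligodendrocyte precursors also make, fell by 0.30 (limma, adjusted p = 0.00923), and the low gene Anpep (CD13) by 0.48 (limma, adjusted p = 0.04). All 4 had no overlap between genotypes. With the length trend removed 3 of the list were called higher and none lower, where 8.03% and 6.71% of all genes were called, and the log2 fold change was -0.45 for Anpep (limma, adjusted p = 0.0672) and -0.18 for Cspg4 (limma, adjusted p = 0.14). Of 7 smooth muscle genes tested, Myl9 rose by 0.55 (limma, adjusted p = 0.0034), a call that was lost with the length trend removed (0.32, limma, adjusted p = 0.0544), while Acta2 (0.14) and Tagln (0.09) did not pass the test.

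Genes of the vascular basement membrane, the sheet shared by endothelium and pericytes, were called in both directions. Of 13, 5 were called lower and 1 higher, with a median log2 fold change of -0.07, where 10.0% of all genes were called lower and 12.0% higher. Col4a2, a chain of collagen IV, fell from 566 ± 17.7 to 410.0 ± 13.3 (SD, n = 4 each), with a log2 fold change of -0.46 (limma, adjusted p = 0.000153). Col4a1 was at -0.26, the proteoglycan Agrn at -0.28, fibronectin Fn1 at -0.25 and the laminin chain Lamc1 at -0.21, all called. Sparc, a collagen-binding protein made by several cell types, rose by 0.22 (limma, adjusted p = 0.0135). These genes have long transcripts, with a median of 6450 bases against 3184 over all tested genes. After removal of the length trend, 1 of the 13 was called lower and 2 higher, where 6.71% and 8.03% of all genes were called, and the median was 0.026.

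**Figure D5:**
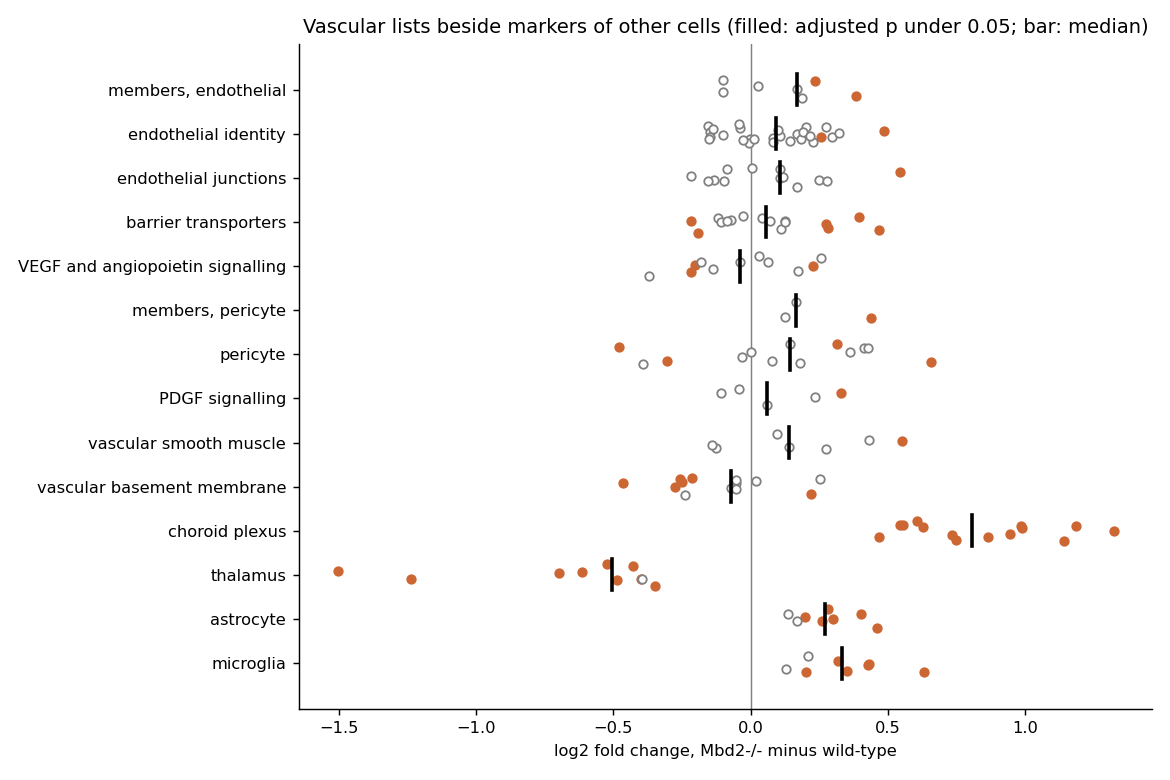
Log2 fold change, Mbd2-/- minus wild-type, of each tested gene (1 point each, horizontal axis) in the 10 genes' own groups and in lists of vascular and other markers, filled where called (limma, adjusted p under 0.05), with the median of each list as a black bar. All 14 choroid plexus genes lie to the right of 0 and all 10 thalamic genes to the left, while the vascular lists drawn here spread on both sides of 0, except the 3 pericyte members, which all lie to the right.

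Markers of other tissue differed between the genotypes as well, and their counts stand against the 12.0% of all genes called higher and 10.0% called lower. All 14 choroid plexus genes were called higher (median log2 fold change 0.81), and their summed normalized count ran from 24307 to 25982 in wild type and from 46848 to 53392 in Mbd2-/-. Of 10 thalamic genes 9 were called lower, with a median of -0.51, and their sum ran from 5387 to 5591 in wild type and from 3696 to 4345 in Mbd2-/-. Astrocyte markers (6 of 8 called higher, sums of 107175 to 109694 and of 116995 to 141172) and microglia markers (6 of 8 called higher, sums of 4992 to 5252 and of 5732 to 6507) were also higher, although 3 of the 8 microglia markers were called higher with the length trend removed, where 8.03% of all genes were. Neuron markers were called higher in 1 and lower in 3 of 8 (median -0.11), and their sum, in which Camk2a is a large share, ran from 148796 to 154387 in wild type and from 158212 to 165977 in Mbd2-/-. Choroid plexus stroma has its own vessels with fenestrated endothelium, whose defining gene Plvap was at 86.1 ± 14.8 in wild type and 83.9 ± 18.4 in Mbd2-/- (SD, n = 4 each, limma, adjusted p = 0.863). Fibroblast genes of vessels and meninges were called higher in 4 and lower in 2 of 10 (median -0.045), among them Col1a1, which rose by 1.37 on the log2 scale, and Dcn, which fell by 0.51, and their sum ran from 2416 to 2519.7 in wild type and from 3109.7 to 3773 in Mbd2-/-. Of 5 blood genes only Alas2 was in the data, with a log2 fold change of -0.23 (limma, adjusted p = 0.0236). No gene of these lists was at 0 reads in every library. The part of these tissue differences in the levels of Rgs5, Cldn5 and Slco1a4 was not tested.

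The summed level of the 7 endothelial genes ran from 3258 to 3446 normalized counts in wild type and from 3417 to 3722 in Mbd2-/-, with overlap. The summed level of the 3 pericyte genes ran from 1847 to 1966 in wild type and from 2231 to 2406 in Mbd2-/-, without overlap. Rgs5 was the largest of the 3 in this sum, while Vtn and Pdgfrb each overlapped between the genotypes. Without Mbd2-/- replicate 4, the members called were Cldn5, Slco1a4, Vtn and Rgs5 (higher) and Flt1 (lower), where 17.9% of all genes were called higher and 17.6% lower. With the length trend removed they were Rgs5, Slco1a4, Kdr and Pdgfrb, all higher, where 8.03% of all genes were called higher, and the median over the 10 was 0.19.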

How the data were processed

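By the study's methods and processing notes, reads were deduplicated, STAR placed them on mm9 and DESeq2 served the authors for the genotype comparison. Versions of these tools and the tool that counted reads on genes are not given in the sources used here. The deposited signal is a normalized count: per gene and library, the read number over that library's DESeq2 size factor, as the authors scaled it. The table also holds 6 columns of the authors' own comparison (mean over libraries, log2 fold change with its error, statistic, p and adjusted p), which were not used.

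The smallest nonzero value of a library served as its unit and gave whole reads for 100% of values, to within 0.01 of a read, with 1 read worth 0.531 to 1.59 normalized counts. Normalized counts are not counts, so log2(value + 1) was tested with limma 3.58.1 (R 4.3.3, mean-variance trend, robust moderation) over 14504 genes. The exact permutation tests listed every split of the libraries into 4 and 4, and scipy 1.17.1 adjusted the p-values of the ratios. As alternatives on the recovered reads, DESeq2 1.42.0 called 2970 genes, edgeR 4.0.16 (quasi-likelihood) 3172 and limma-voom 3159, against 3185. Further alternatives were pseudocounts of 0.5 and 5, no filter on low values, TMM and upper quartile scaling, removal of each library's trend on log transcript length (lowess, span 0.3), a replicate block and each library left out. Of the symbols, 93.2% (17899) matched GENCODE vM1 on mm9, which gave positions, lengths and overlaps.

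The members and marker lists were chosen with earlier results of these data known. Named are the 10 members, Mbd2, of each list the 3 members highest per kilobase and the 3 called with the smallest p in each direction, and the genes most like the endothelial mean. Not every gene so selected is printed. Col4a1, Lamc1, Cdh5 and Ptprb were added after their values were seen, and Slco1a5 as a close relative of Slco1a4. Same-numbered libraries had correlated deviations of -0.24, -0.13, 0.24 and 0.10, of both signs, and the main fit paired no samples. Whether libraries shared a litter or a batch was not tested. The variance between libraries of a genotype was 1.97 to 15.4 times that of counting, so no 2 libraries agreed within counting noise. These reads lack molecular identifiers.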

Additional observations from a re-analysis of the deposited data

Results flagged for a closer look

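Tek in Mbd2-/- replicate 4 stood at 196 normalized counts against 144, 147 and 148 in the other libraries of the genotype, a gap of 0.924 of the group's range, past Dixon's 95% critical value for 4 samples. It was the 1 group of 20 examined (10 genes in 2 genotypes) to pass that limit, and chance alone gives about 1 in 20. The same library stood apart in its length trend, and whether that bears on Tek was not tested.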

How the results depend on the processing

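Over all 14504 genes 3185 were called, and with the length trend removed 2067 of the 14014 that have a transcript length. The number ran from 2068 (without wild-type replicate 3) to 5155 (without Mbd2-/- replicate 4) with 1 library left out. Of the 10 genes described, 2 to 4 were called higher with 1 library left out, and 0 to 1 lower, the 1 being Flt1 without Mbd2-/- replicate 4. Their median log2 fold change ran from 0.14 to 0.18 with 1 library left out. The sign turned for Flt1 (0.014) and Slc2a1 (-0.012) with the length trend removed, and for Slc2a1 without Mbd2-/- replicate 3 (-0.027, with a range up to 0.072 over the libraries left out), none of them called in any of these cases. The cause was not tested. Upper quartile scaling moved the share of higher calls among all calls from 54.5% to 49.6%. With the replicate number as a block, 3192 genes and the same 3 members (Rgs5, Cldn5 and Slco1a4) were called, with a median of 0.17. The pools of 2 mice, 4 per genotype, set the precision.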
